A study of Mus musculus with 30 samples.

Results

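Of the 30 mouse islet libraries in the series, 9 came from alpha-cells that had received a single perturbation: 5 libraries of alpha-cells made to express Pdx1 with no toxin given (alpha Pdx1) and 4 libraries of alpha-cells from mice whose beta-cells had been ablated with no Pdx1 transgene (alpha DT). They are all the libraries with these labels, though the choice was made with earlier results of these data known. Each was set against the other directly, and both were set against 8 libraries of unperturbed alpha-cells (alpha), so that a gene could be moved by Pdx1, by ablation or by both. All libraries were bulk RNA-seq of cells sorted by fluorescence from islets.

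The alpha Pdx1 mice carried Glucagon-rtTA, TetO-Cre, the R26YFP reporter and CAG-Pdx1 and were studied at 3 months, untreated with toxin. The alpha DT mice carried Glucagon-Venus and RIP-DTR, an insulin-promoter transgene for the diphtheria toxin receptor, received the toxin at 2 months and were taken 30 days later. The alpha mice carried Glucagon-Venus, were 3 months old and had no toxin. A further 7 libraries of Insulin-mCherry beta-cells from mice of 3 months (beta) serve as a reference level. The series also holds 6 libraries of alpha-cells with Pdx1 from mice given the toxin at 2 months and taken 30 days later (alpha Pdx1 DT). No comparison uses the mean of beta or alpha Pdx1 DT. Both groups enter the gene filter and the estimate of spread behind the p-values. Between alpha Pdx1 and alpha DT the reporter, rtTA, Cre, the Pdx1 transgene, RIP-DTR and the toxin all differ at once. Their parts in a difference cannot be told apart. The same holds against alpha, which differs from alpha Pdx1 also in the reporter, rtTA and Cre and from alpha DT in both RIP-DTR and toxin, so "with Pdx1" and "after ablation" name these comparisons of whole groups. Whether the libraries of a group came from separate animals is not in the labels, and the p-values therefore reflect sample-to-sample spread, which may be technical.

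Pdx1 is a homeodomain transcription factor that beta-cells keep and mature alpha-cells have silenced, and it acts at the genes for insulin, islet amyloid polypeptide and glucose handling. Diphtheria toxin kills only cells that carry its receptor, so the RIP-DTR transgene removes beta-cells and spares alpha-cells, and macrophages are the cells that clear such dead cells in tissues. The comparison asks which genes of the alpha-cell fraction follow the factor and which follow the loss of the neighbouring beta-cells.

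The values are quantile-normalized log2 values, in which every library shares one set of levels and the top gene sits at 22.56, so differences among the hormone genes show changes of rank rather than of amount. Both groups held the defining alpha-cell genes. Gcg, the glucagon gene, was at 22.56 in all 4 alpha DT libraries and at 19.87, 18.63, 22.56, 20.54 and 22.56 in the 5 alpha Pdx1 libraries. Irx2, an alpha-cell homeobox gene, was between 10.81 and 12.51 in the 9 libraries and at a median of 5.94 in beta. Read numbers are not known. The level of Rn18s-rs5, a ribosomal RNA copy, separated the groups, at 16.90 to 18.27 in alpha Pdx1 (mean 17.31 ± 0.56, SD, n = 5) and 19.27 to 20.54 in alpha DT (20.06 ± 0.61, SD, n = 4; two-sided exact permutation p = 0.0159, the smallest the design allows). In alpha it spanned 17.68 to 20.54. The library labelled alpha 8 had Pdx1 at 11.23, within the alpha Pdx1 range, and alpha Pdx1 5 had the lowest Pdx1 level of its group, so counts that lead a paragraph are also given without 5 libraries. These are alpha 8, alpha Pdx1 5, alpha Pdx1 DT 5, which had Pdx1 at 5.51, and beta 1 and beta 5, which had Gcg at 22.56.

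**Figure D1:**
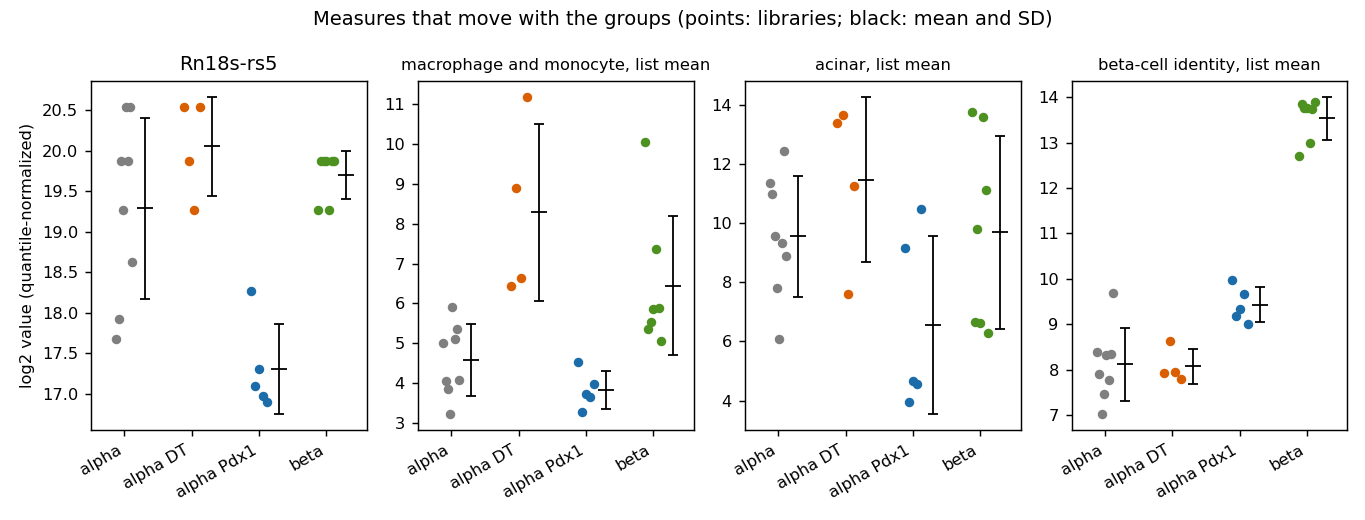
Library level of Rn18s-rs5 and means of the macrophage, acinar and beta-cell lists (y axes, log2 values) in the alpha, alpha DT, alpha Pdx1 and beta libraries (points), with group mean and SD in black. Rn18s-rs5 lies at 16.90 to 18.27 in alpha Pdx1 and at 19.27 to 20.54 in alpha DT, with no overlap.

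Across 16633 tested genes, 2830 differed between alpha Pdx1 and alpha DT at an adjusted p under 0.05 (17.0% of genes tested), 1634 higher and 1196 lower in alpha Pdx1 (9.82% and 7.19%). Against alpha, 721 genes passed in alpha Pdx1 (4.33%; 392 higher, 2.36%, and 329 lower, 1.98%) and 543 in alpha DT (3.26%; 261 higher, 1.57%, and 282 lower, 1.70%). The 2 comparisons with alpha share those 8 libraries, so their lists are given side by side and not tested against each other. Of the 721 genes, 461 also passed the direct test in the same direction without passing for ablation, 293 higher and 168 lower with Pdx1. Of the 543 genes, 459 also passed the direct test without passing for Pdx1, 221 higher and 238 lower after ablation. In both comparisons with alpha 18 genes passed, 2.5% of the Pdx1 genes and 3.3% of the ablation genes. Over all genes tested 3.26% passed for ablation and 4.33% for Pdx1. The small overlap therefore does not show that the perturbations move separate genes. Of the 18 genes, 11 moved in opposite directions. A further 1898 genes passed the direct test alone.

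These counts depend on how the spread and the ribosomal RNA level are treated. With Rn18s-rs5 as a covariate the direct comparison called 333 genes. Of the 116 genes followed individually that passed the direct test, 44 kept their call. Rn18s-rs5 levels did not overlap between the 2 groups, so this fit cannot separate its part from that of the perturbations. Calls were lost both where the difference grew (Iapp, 4.06 to 4.77) and where it shrank (Csf1r, -5.64 to -4.99). A fit to these 9 libraries alone called 1385 genes (682 higher and 703 lower). Without the 5 libraries listed above the direct count was 2441, the Pdx1 count 1099, the ablation count 543 and the count past both 69.

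**Figure D2:**
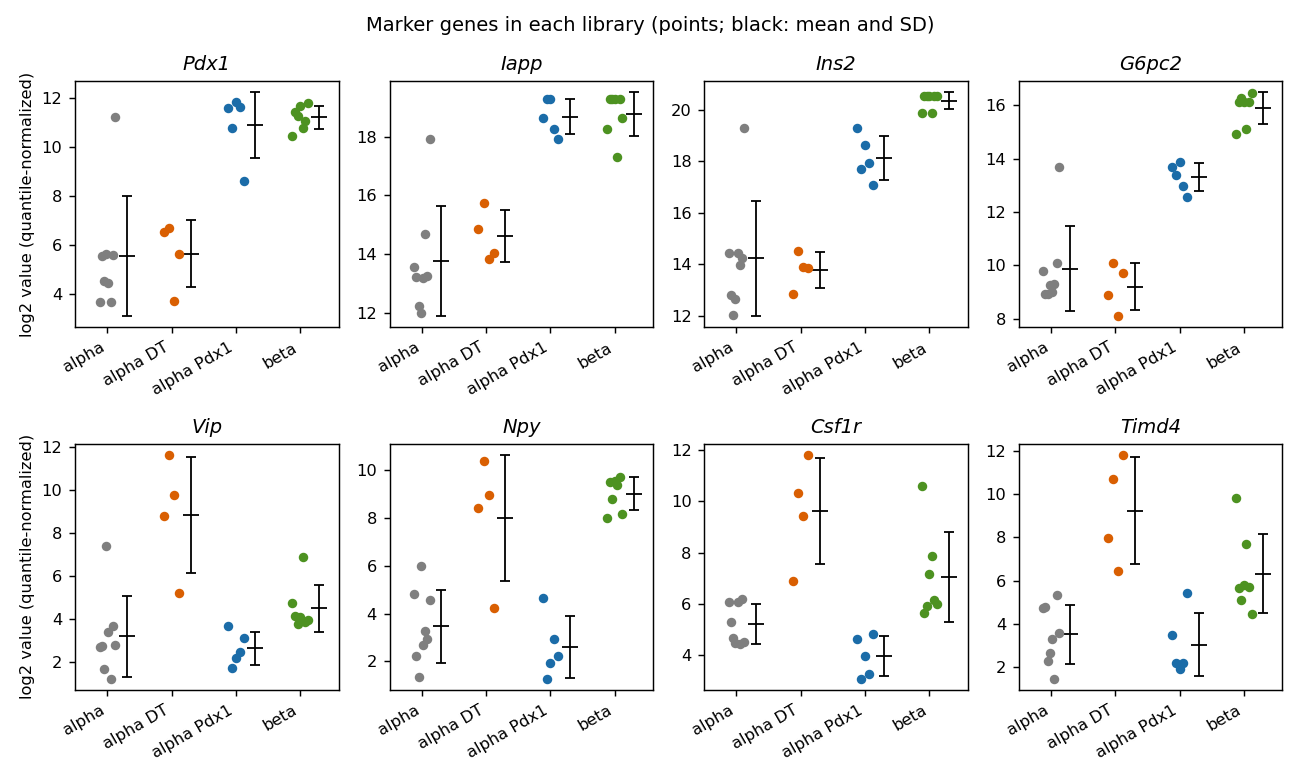
Level of 8 genes (y axes, log2 values) in each alpha, alpha DT, alpha Pdx1 and beta library (points), with group mean and SD in black. The upper row is high in alpha Pdx1, where G6pc2 runs from 12.58 to 13.88 against 8.10 to 10.09 in alpha DT, and the lower row is high in alpha DT; alpha 8 stands with alpha Pdx1 in the upper row.

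Pdx1 itself (chr5:147269959-147275848, GRCm38, plus strand) checked the labels. Its level was 11.60, 10.78, 11.83, 11.64 and 8.61 in alpha Pdx1 and 6.52, 6.70, 3.71 and 5.63 in alpha DT, while beta libraries had a median of 11.26. All alpha Pdx1 libraries were above all alpha DT libraries. The difference was 5.25 ± 1.26 (log2, SE; adjusted p = 0.00631), and it was 6.12 with an adjusted p of 0.0622 with the Rn18s-rs5 covariate. The table does not separate the transgene's transcript from that of the native gene.

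Iapp, which encodes the amyloid peptide that beta-cells release with insulin, was higher in alpha Pdx1 than in alpha DT. It lies on chr6:142298423-142303961 (GRCm38, plus strand), and Ins1, one of the 2 mouse insulin genes, lies on chr19:52264297-52265476 (plus strand). Both are known genes of the Pdx1 programme and were called in the direct comparison, so the bases just upstream of each start are shown from RefSeq, build GRCm38.p6, read 5′ to 3′ along the gene's strand. Capitals mark TAAT, the core that homeodomain factors read, and ATTA, the same core on the other strand, where overlapping matches were each counted. The Iapp window is chr6:142298185-142298422 (238 bases, 5 matches) and the Ins1 window chr19:52264057-52264296 (240 bases, 3 matches).
Iapp: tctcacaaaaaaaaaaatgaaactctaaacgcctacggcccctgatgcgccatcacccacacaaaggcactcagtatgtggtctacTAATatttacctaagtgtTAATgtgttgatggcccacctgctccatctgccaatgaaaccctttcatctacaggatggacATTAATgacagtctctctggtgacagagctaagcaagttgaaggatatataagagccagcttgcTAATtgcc
Ins1: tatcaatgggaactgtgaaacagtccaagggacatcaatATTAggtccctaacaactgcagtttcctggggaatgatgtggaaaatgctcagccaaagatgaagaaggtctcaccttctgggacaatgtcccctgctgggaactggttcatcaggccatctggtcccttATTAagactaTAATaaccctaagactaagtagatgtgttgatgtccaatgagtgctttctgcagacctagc
Short cores of this kind are common. Among 27025 RefSeq windows of 240 bases before a start, 53.8% held at least 1 match, 16.6% at least 3 and 5.3% at least 5, so the matches describe these windows and identify no site.

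Iapp was at 18.63, 19.27, 19.27, 18.27 and 17.92 in alpha Pdx1 and at 14.86, 15.75, 13.84 and 14.03 in alpha DT. The beta median was 19.27, a level reached by 2 alpha Pdx1 libraries. The difference between the groups was 4.06 ± 1.05 (adjusted p = 0.0106), and Iapp differed from alpha by 4.91 ± 0.89 with Pdx1 (adjusted p = 0.00297) and by 0.85 ± 0.96 after ablation (adjusted p = 0.664). With the Rn18s-rs5 covariate the direct difference was 4.77 (adjusted p = 0.0806).

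Both insulin genes were also higher in alpha Pdx1 than in alpha DT. Ins2 was at 19.27, 17.68, 18.63, 17.92 and 17.09 in alpha Pdx1 and at 12.83, 14.51, 13.91 and 13.86 in alpha DT (4.34 ± 1.14, adjusted p = 0.0116; with the Rn18s-rs5 covariate 4.62, adjusted p = 0.124). Ins1 was at 17.68, 17.47, 17.47, 19.27 and 15.11 against 11.52, 14.15, 14.03 and 13.34 (4.14 ± 1.29, adjusted p = 0.0287). The groups did not overlap for either gene, and every alpha Pdx1 library stayed below the beta medians of 20.54 for Ins2 and 22.56 for Ins1. The Ins1 call was the less secure, with an adjusted p of 0.0863 without alpha DT 1, 0.0539 without alpha Pdx1 2 and 0.0749 without alpha Pdx1 4, of 0.0987 with the Rn18s-rs5 covariate, 0.0967 with the acinar covariate and 0.0522 with library weights. Against alpha, Ins2 rose with Pdx1 by 3.89 ± 0.97 (adjusted p = 0.0202), whereas Ins1 did not pass (3.71 ± 1.09, adjusted p = 0.0524). Library alpha 8 held Ins1 at 18.27 and Ins2 at 19.27, against 11.61 to 14.96 and 12.04 to 14.42 in the other alpha libraries. After ablation alone neither gene passed against alpha (Ins1 -0.43 ± 1.17, Ins2 -0.45 ± 1.04).

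Of 26 beta-cell genes tested, 12 were higher in alpha Pdx1 than in alpha DT and 1 was lower (9.82% and 7.19% over all genes). The median difference was 0.78 against 0.08 over all genes. Without Pdx1 itself, which the transgene supplies, 11 of 25 were higher. Without the 5 libraries listed above 14 were higher and 1 lower, and with the Rn18s-rs5 covariate 4 were higher and 1 lower. G6pc2, the islet glucose-6-phosphatase, differed by 4.11 ± 0.87 (adjusted p = 0.0026). Ucn3, a peptide of mature mouse beta-cells, was at 8.82, 7.92, 8.18, 8.04 and 7.09 in alpha Pdx1 and at 4.18, 4.37, 4.10 and 3.05 in alpha DT (4.09 ± 0.99, adjusted p = 0.00626). It did not pass against alpha in either group, with a Pdx1 difference of 1.63 ± 0.84 and an ablation difference of -2.46 ± 0.90, and alpha spanned 2.81 to 8.46. Trpm5, a cation channel of taste cells and beta-cells, differed by 3.72 ± 0.81 (adjusted p = 0.0025). Papss2, which makes the sulfate donor of the cell, was at 12.60 to 13.35 in alpha Pdx1 and 8.85 to 10.84 in alpha DT (3.21 ± 0.68, adjusted p = 0.00247).

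Several core beta-cell genes did not pass the direct test. Mafa, the factor of mature beta-cells, was at 0.76 to 1.28 in alpha Pdx1 and 0.99 to 2.00 in alpha DT, against a beta median of 7.94. Nkx6-1, a beta-cell homeodomain factor, differed by -0.90 ± 0.46 (adjusted p = 0.175). The glucose transporter gene Slc2a2 was at 5.91 to 6.75 and 4.92 to 6.07, far from the beta median of 14.96. For Glp1r, the incretin receptor, the difference was 1.96 ± 0.71 (adjusted p = 0.0549).

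Among factors and hormones shared by islet cells the pattern was mixed. Of 18 pan-endocrine transcription factors 3 were higher in alpha Pdx1 and 1 was lower (9.82% and 7.19% over all genes). Leaving out the 5 libraries gave 2 and 2, and the Rn18s-rs5 covariate gave 0 and 1. Mlxipl, the glucose-responsive factor ChREBP, was at 14.18, 13.81, 13.82, 13.42 and 11.87 in alpha Pdx1 and at 9.37, 10.92, 10.23 and 10.40 in alpha DT (3.19 ± 0.87, adjusted p = 0.0139). Nkx2-2, a homeodomain factor of all islet lineages, was the lower one, at 10.91 to 11.53 against 12.45 to 13.15 (-1.62 ± 0.27, adjusted p = 0.000276). It rose after ablation, by 1.03 ± 0.25 against alpha (adjusted p = 0.0196). Sst, the somatostatin gene, and Ppy, the pancreatic polypeptide gene, differed by -2.79 ± 1.03 (adjusted p = 0.0626) and -1.28 ± 0.86 (adjusted p = 0.319). Pyy, the peptide YY gene, was at 20.54, 22.56, 20.54, 22.56 and 18.27 in alpha Pdx1 and 18.63, 18.27, 17.09 and 17.31 in alpha DT (3.07 ± 1.22, adjusted p = 0.0839).

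Of 20 alpha-cell genes tested, 0 were higher and 3 lower in alpha Pdx1 (9.82% and 7.19% over all genes), with a median difference of -0.06; without the 5 libraries listed above 1 was higher and 5 lower, and with the Rn18s-rs5 covariate 0 passed. Among the 3 were the amino acid transporters Slc38a5 and Slc7a2. Slc38a5 was at 8.46, 8.38, 9.11, 8.0 and 9.74 in alpha Pdx1 and at 11.37, 11.05, 11.05 and 11.00 in alpha DT (-2.38 ± 0.48, adjusted p = 0.00133). Slc7a2 differed by -1.75 ± 0.40 (adjusted p = 0.00365). Slc38a5 and Slc7a2 also fell with Pdx1 against alpha, by 1.49 ± 0.41 (adjusted p = 0.0301) and 1.49 ± 0.34 (adjusted p = 0.0105). Irx1 and Irx2, alpha-cell homeobox genes, did not pass, at -1.60 ± 0.75 (adjusted p = 0.138) and -0.18 ± 0.68 (adjusted p = 0.882).

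Most of the largest steps on the Pdx1 side lay outside the beta-cell list. By fold, the leading genes above the median level were Gm10846, 1700011H14Rik, B830017H08Rik, Slc5a1, Tagln3, Lypd6, Pdx1, Inpp4b, Lrtm1 and Defb1, with differences of 6.40 ± 1.04 for Gm10846 down to 4.56 ± 0.92 for Defb1. Slc5a1, the sodium-glucose cotransporter of the gut, was at 10.13, 10.01, 10.62, 10.38 and 9.61 in alpha Pdx1 and at 3.59, 3.77, 4.30 and 5.40 in alpha DT (5.89 ± 1.15, adjusted p = 0.00121). Its beta median was 6.23, so the alpha Pdx1 libraries were above the beta level. Tagln3, a neuronal calponin-family gene, showed the same order, at 12.66, 11.29, 10.76, 10.92 and 9.93 against 5.85, 5.73, 3.71 and 5.74 (5.85 ± 1.14, adjusted p = 0.00121), with a beta median of 5.99. With the Rn18s-rs5 covariate the direct difference of Tagln3 was 6.83 (adjusted p = 0.0244). Lrtm1 had a beta median of 2.04 and lay between 9.51 and 10.80 in alpha Pdx1. By contrast the beta median of Inpp4b, an inositol phosphatase gene, was 9.56 and that of Defb1, a defensin gene, 11.18. In alpha 8 these genes were also high, with 11.00 for Slc5a1 and 11.26 for Tagln3. Among genes chosen after their values were seen, Agtr1a, an angiotensin receptor gene, was at 6.91, 7.80, 5.07, 7.43 and 6.70 in alpha Pdx1 and at 0.99 to 2.07 in alpha DT and 1.03 in the median beta library.

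On the ablation side, Vip (chr10:5639218-5647617, plus strand), which encodes the vasoactive intestinal peptide of autonomic nerves, was at 8.81, 11.63, 9.77 and 5.22 in alpha DT and at 3.68, 1.72, 2.21, 2.48 and 3.10 in alpha Pdx1. The groups did not overlap, though alpha DT 4 was far below the other three. The direct difference was -6.22 ± 1.05 (adjusted p = 0.000297), and it was -6.96 with the Rn18s-rs5 covariate (adjusted p = 0.0138). Against alpha, Vip rose by 5.66 ± 0.95 after ablation (adjusted p = 0.00158) and differed by -0.56 ± 0.89 with Pdx1 (adjusted p = 0.802).

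Other genes of autonomic neurons were also low in alpha DT 4 and high in the other alpha DT libraries. Npy, neuropeptide Y, was at 8.42, 10.36, 8.95 and 4.22 in alpha DT and at 4.67, 1.28, 1.93, 2.92 and 2.25 in alpha Pdx1 (-5.38 ± 0.96, adjusted p = 0.000483), so that alpha DT 4 fell inside the alpha Pdx1 range. It is the 1 member of the beta-cell list that was lower, and its beta median was 9.37. Prph, the peripheral neuron filament peripherin, was at 7.32, 8.26, 8.94 and 3.39 against 0.76 to 2.25 (-5.55 ± 1.06, adjusted p = 0.000775). Slc18a3, the vesicular acetylcholine transporter, was at 6.37, 6.55, 7.76 and 2.67 against 0.76 to 1.93 (-4.57 ± 0.90, adjusted p = 0.00102). Of the 8 tested genes of the Schwann and autonomic nerve list only Prph and Slc18a3 were called (7.19% lower over all genes). The same held without the 5 libraries and with the Rn18s-rs5 covariate, and the list median was -0.16. Gap43, a growth-cone protein of the same list, had another order, at 7.41 to 8.74 in alpha Pdx1 and 4.81 to 7.82 in alpha DT (1.49 ± 1.07, adjusted p = 0.351), and against alpha it rose with Pdx1 by 3.24 ± 0.91 (adjusted p = 0.0365). Sncg, gamma-synuclein, chosen after its values were seen, was at 7.18, 8.22, 8.52 and 2.67 against 1.03 to 2.21 (-4.85 ± 0.92, adjusted p = 0.000689). The library alpha 4 also held Vip and Prph, at 7.39 and 5.93. The part of nerve-type RNA in the sorted fraction was not tested.

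Macrophage genes made up the second ablation block. Of 16 macrophage and monocyte genes tested, 10 were lower in alpha Pdx1 than in alpha DT and 0 higher (7.19% and 9.82% over all genes). The median difference was -4.60, and 9 of the 16 rose in alpha DT against alpha (1.57% over all genes). The number lower in the direct comparison was 10 without the 5 libraries and 1 with the Rn18s-rs5 covariate. Csf1r, the receptor that keeps macrophages alive, was at 6.88, 10.30, 9.42 and 11.80 in alpha DT and at 4.62, 3.09, 3.96, 3.28 and 4.85 in alpha Pdx1. Its groups did not overlap, and the alpha range of 4.45 to 6.21 lay below all alpha DT libraries and overlapped alpha Pdx1. The direct difference was -5.64 ± 1.14 (adjusted p = 0.00151), and it was -4.99 (adjusted p = 0.0923) with the Rn18s-rs5 covariate. Against alpha it rose by 4.38 ± 1.04 after ablation (adjusted p = 0.0198) and differed by -1.26 ± 0.97 with Pdx1 (adjusted p = 0.558). Timd4, a phosphatidylserine receptor of resident macrophages, was at 7.96, 10.71, 6.46 and 11.80 in alpha DT and at 3.51, 2.22, 1.93, 2.21 and 5.42 in alpha Pdx1 (-6.17 ± 1.16, adjusted p = 0.000782). Lyz2, the macrophage lysozyme, was at 12.25, 13.88, 11.30 and 15.62 against 9.23, 6.57, 5.96, 3.89 and 7.51 (-6.63 ± 1.48, adjusted p = 0.00389). The scavenger receptor gene Marco, the adaptor gene Tyrobp and the sialic acid receptor gene Siglec1 showed differences of -6.22 ± 1.38, -5.83 ± 1.18 and -5.14 ± 0.91. Dnase1l3, a nuclease secreted by phagocytes, had the largest of these, at -7.10 ± 1.41 (adjusted p = 0.00147).

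The alpha DT libraries differed among themselves in these genes. All 10 called genes had their highest alpha DT value in alpha DT 4, the library with the lowest nerve-type genes. The mean over the 16 genes was 6.44 to 11.19 in alpha DT, 3.27 to 4.54 in alpha Pdx1 and 3.22 to 5.91 in alpha. In the beta reference libraries this mean was 5.06 to 10.05 and Csf1r was at 5.66 to 10.60. Both ranges overlapped alpha DT, so such levels were not found in alpha DT alone. The complement genes C1qb and C1qc were at 10.91 and 11.18 in alpha DT 4, at 1.08 in alpha DT 1 and at no more than 2.39 in alpha Pdx1, and neither passed the direct test (adjusted p = 0.222 and 0.226). In bulk RNA from sorted cells, more cells of a type and more RNA per cell cannot be told apart.

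Genes of other cell types in the pancreas gave fewer calls. They are given beside the shares over all genes tested, 7.19% lower and 9.82% higher in alpha Pdx1. Of 9 tested leukocyte genes outside the macrophage list 3 were lower in alpha Pdx1 and 0 higher (3 without the 5 libraries, 0 with the Rn18s-rs5 covariate and 1 to 3 over the leave-one-out fits), among them Coro1a, an actin regulator of blood cells (-4.24 ± 1.18, adjusted p = 0.0138), and the B-cell gene Cd79a (-2.79 ± 0.95, adjusted p = 0.0411). Of 18 acinar genes 3 were lower and 0 higher, with a median of -4.81 that rested on a wide spread. Ctrb1, a chymotrypsinogen gene, was at 17.31, 16.66, 11.40 and 15.16 in alpha DT and at 12.23, 3.66, 6.28, 5.99 and 11.53 in alpha Pdx1 (-7.19 ± 2.29, adjusted p = 0.0324). The mean over acinar genes was 7.60 to 13.64 in alpha DT, 3.94 to 10.47 in alpha Pdx1 and 6.08 to 12.44 in alpha, so the groups overlapped. Without the 5 libraries 8 acinar genes passed, over the leave-one-out fits 0 to 7 did, and with the Rn18s-rs5 covariate 0 did. Pecam1, an endothelial adhesion gene, and Sox9, a duct factor, were lower by -4.19 ± 1.20 (adjusted p = 0.0163) and -3.33 ± 1.02 (adjusted p = 0.0229). They were the only lower genes of 4 tested endothelial genes (median 0.21) and 7 tested ductal genes (median -0.37). Each kept its call in 5 of 10 other fits, and with the Rn18s-rs5 covariate neither list had a call. Epcam, an epithelial adhesion gene, was the 1 ductal-list gene that was higher (1.13 ± 0.22, adjusted p = 0.000782). The part of macrophage and acinar RNA in the other differences was not tested beyond the covariate fits given in the closing section.

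A few strong ablation genes belong to none of these lists. Zfp703, a zinc finger repressor, was at 10.07, 7.19, 9.75 and 9.14 in alpha DT and at 4.49, 3.43, 3.56, 3.06 and 5.42 in alpha Pdx1 (-5.05 ± 0.64, adjusted p = 1.74e-05). It rose by 3.44 ± 0.59 after ablation (adjusted p = 0.00158), and its direct difference was -3.99 with the Rn18s-rs5 covariate (adjusted p = 0.0138). Il22ra2, a secreted receptor that binds interleukin 22, chosen after its values were seen, was at 6.53, 11.04, 7.10 and 9.26 against 0.91 to 3.42 (-6.87 ± 1.05, adjusted p = 0.000114). Colq, the collagen tail of acetylcholinesterase, and Mcoln2, a lysosomal channel gene, also chosen after the fact, were at 5.77 to 7.22 and 4.86 to 7.27 in alpha DT and at no more than 2.04 and 1.43 in alpha Pdx1. All 4 alpha DT libraries were high in these 4 genes, including alpha DT 4. Vgf, a granule protein of neuroendocrine cells, was at 10.17, 10.01, 9.49 and 8.99 in alpha DT, at 5.90 to 7.79 in alpha Pdx1 and at 6.26 to 7.84 in alpha (direct -2.82 ± 0.49, adjusted p = 0.000338; ablation 2.36 ± 0.45, adjusted p = 0.00371).

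Of the 238 genes that fell after ablation, passed the direct test and did not pass with Pdx1, those with the largest direct differences above the median level were Cntnap5b, Neurl1b, Dnahc2, Rgs16 and Pcdhgb5. Cntnap5b, a contactin-associated adhesion gene, was at 6.75, 8.41, 7.86 and 7.49 in alpha DT and at 8.91, 11.36, 10.75, 10.76 and 10.08 in alpha Pdx1, and it fell by 2.35 ± 0.48 after ablation (adjusted p = 0.00666). Rgs16, a brake on G-protein signalling, fell by 1.82 ± 0.39 after ablation (adjusted p = 0.00895) and differed by 2.26 ± 0.42 in the direct comparison (adjusted p = 0.000643). Of the 168 genes that fell with Pdx1, passed the direct test and did not pass after ablation, the leading ones by the same order were Rpl28-ps3, Gm4613, Wfdc16, Gm10051 and 3110082I17Rik, from -2.64 ± 0.72 for Gm4613 to -1.46 ± 0.42 for Gm10051 against alpha. Rpl28-ps3, Gm4613 and Gm10051 are annotated as processed pseudogenes, which can share reads with the genes they were copied from, so their values are uncertain.

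The 11 genes that moved in opposite directions lay on both sides of alpha, and all 11 passed the direct test. The direct difference is the Pdx1 difference minus the ablation difference in the same fit, so this pass is not separate support. The set is also unstable, as the count past both comparisons with alpha was 6 to 43 over the leave-one-out fits. Of these, 9 were higher with Pdx1 and lower after ablation, namely Gm17843, Pde5a, Gpr158, Gabbr2, Svil, Ehhadh, Prnp, Syt14 and Vegfa. Pde5a, the cyclic GMP phosphodiesterase, was at 9.76, 10.38, 10.76, 10.35 and 10.66 in alpha Pdx1 and at 6.94, 7.29, 5.34 and 6.76 in alpha DT, with an alpha median of 8.37. It rose by 1.74 ± 0.41 with Pdx1 (adjusted p = 0.0123) and fell by 2.06 ± 0.44 after ablation (adjusted p = 0.0101). Gabbr2, a subunit of the metabotropic GABA receptor, was at 11.00, 11.00, 10.95, 11.04 and 10.05 against 8.06, 8.04, 7.26 and 8.58, with an alpha median of 9.35 and a beta median of 11.00. Its direct difference was 2.82 ± 0.36 (adjusted p = 1.74e-05). Svil, the actin-binding protein supervillin, had the smallest direct p of the 11 (2.37 ± 0.26, adjusted p = 2.18e-06). Vegfa, the endothelial growth factor gene, was at 14.32, 14.09, 14.20, 14.20 and 14.40 against 12.78, 13.07, 13.03 and 13.48 (1.15 ± 0.19, adjusted p = 0.000184). The 2 genes of the other kind were Mfap2, a microfibril protein gene (-3.33 ± 0.45, adjusted p = 2.89e-05), and Litaf, a lysosomal membrane protein gene, at 9.56, 8.87, 9.25 and 9.25 in alpha DT and 5.49, 5.85, 6.18, 5.50 and 7.72 in alpha Pdx1. In all 11 genes the libraries of the 2 groups did not overlap, as in 1477 of the 2830 genes called and 1913 of all genes tested (11.5%).

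The other 7 genes passed in the same direction against alpha. Pde1b, a calcium-dependent phosphodiesterase, P2ry12, a purine receptor known from microglia and platelets, L1cam, a neural adhesion molecule, and Tmem65 were higher in both. Pde1b was at 7.30, 7.04, 7.17, 7.85 and 6.26 in alpha Pdx1, at 6.63, 6.26, 7.06 and 7.39 in alpha DT and at a median of 4.65 in alpha. Its direct difference was 0.29 ± 0.50 (adjusted p = 0.73). L1cam differed from alpha by 1.34 ± 0.37 with Pdx1 (adjusted p = 0.0313) and by 2.48 ± 0.40 after ablation (adjusted p = 0.00122). P2ry12 was the 1 gene of the 7 to pass the direct test, with a difference of -1.65 ± 0.59 (adjusted p = 0.0485), lower with Pdx1 than after ablation. This call was insecure: it was kept in 2 of 11 other fits and in 6 of 17 leave-one-out fits. Upk3a, a urothelial plaque protein, Gm8283 and Notch1, a receptor of the Notch pathway, were lower in both. Upk3a was at 5.45, 7.05, 5.65, 6.74 and 9.17 in alpha Pdx1 and at 7.02, 6.09, 6.52 and 5.06 in alpha DT, with an alpha median of 11.35, and alpha 8 was the low alpha library at 5.80. Notch1 was at 10.25 to 10.76 in alpha Pdx1, 10.46 to 11.00 in alpha DT and 10.96 to 11.68 in alpha, with differences of -0.66 ± 0.15 (adjusted p = 0.00918) and -0.59 ± 0.16 (adjusted p = 0.037). Of the 16 Notch pathway genes tested, 0 passed the direct test.

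**Figure D3:**
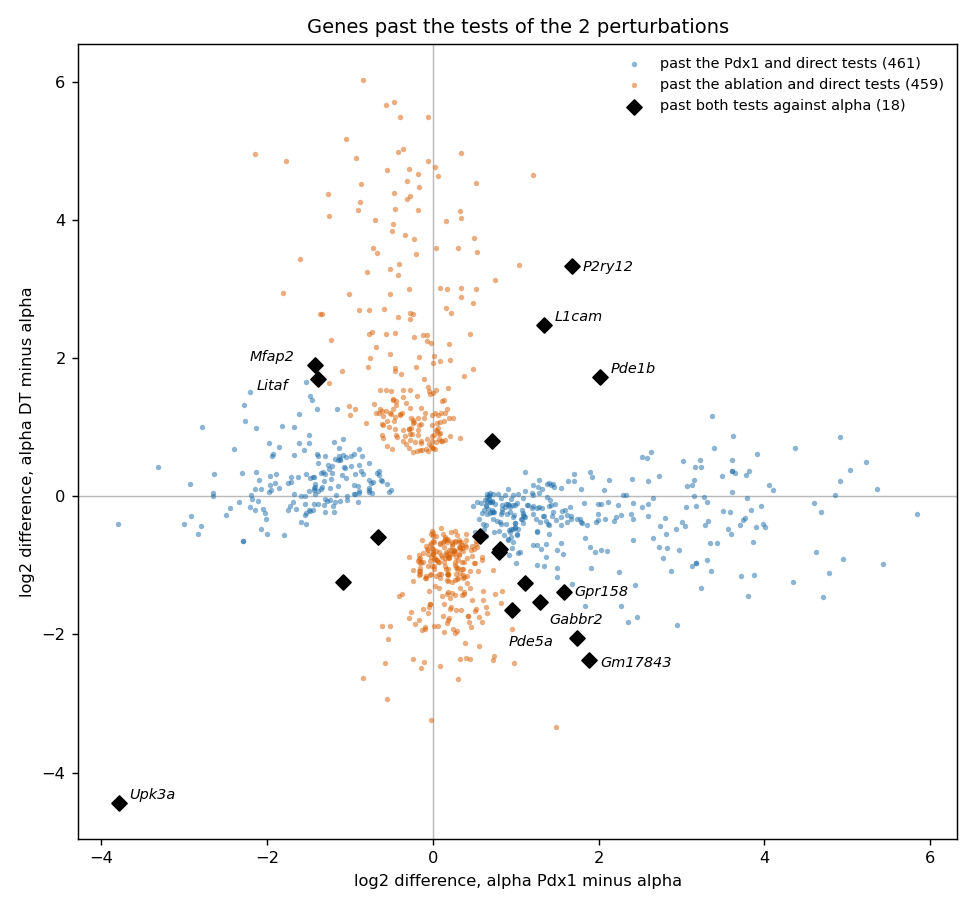
Log2 difference from alpha in alpha Pdx1 (x axis) and in alpha DT (y axis) for genes past 1 comparison with alpha and the direct test (blue for Pdx1, orange for ablation) and for the 18 genes past both comparisons with alpha (black diamonds, 10 named). Both axes share the 8 alpha libraries; the 18 diamonds include 11 in the quadrants of opposite sign.

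Tac1, the substance P gene, is an instance of a gene called once. It was at 10.60, 9.76, 7.48, 9.16 and 8.35 in alpha Pdx1, at 8.55, 8.52, 7.80 and 4.05 in alpha DT and at a median of 3.80 in alpha. It rose with Pdx1 by 4.99 ± 0.90 (adjusted p = 0.00239), the ablation difference was 3.15 ± 0.96 (adjusted p = 0.0628), and the direct difference of 1.84 ± 1.06 did not pass (adjusted p = 0.232). Such a gene is past the test in one group alone without a shown difference between the groups.

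Of 24 unfolded protein response genes 9 were higher and 2 lower in alpha Pdx1 (9.82% and 7.19% over all genes), with a median of 0.43. Without the 5 libraries 9 were higher and 0 lower, and with the Rn18s-rs5 covariate 6 and 0. Without alpha DT 3, with library weights and in the fit to these 9 libraries 5 were higher, with 0, 1 and 0 lower. Hspa5, the main chaperone of the endoplasmic reticulum, was at 15.25, 15.43, 15.54, 15.79 and 15.05 in alpha Pdx1 and at 14.11, 14.41, 14.04 and 14.31 in alpha DT (1.19 ± 0.27, adjusted p = 0.003). Pdia3, a disulfide isomerase, differed by 1.27 ± 0.22 (adjusted p = 0.000351) and Creld2, a folding factor, by 1.73 ± 0.33 (adjusted p = 0.000701). Pdia3 fell after ablation, by 0.73 ± 0.20 (adjusted p = 0.04), and Dnajb9, a cochaperone of Hspa5, rose with Pdx1 by 1.21 ± 0.25 (adjusted p = 0.00604). The 2 lower genes, Chac1 and Atf4, belong to the amino acid stress arm. Chac1, a glutathione-degrading enzyme, was at 7.93, 7.16, 8.98 and 6.08 in alpha DT and at 4.99 to 6.26 in alpha Pdx1 (-1.90 ± 0.56, adjusted p = 0.0198) and rose by 2.34 ± 0.51 after ablation (adjusted p = 0.0104).

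Over all genes tested 9.82% were higher and 7.19% lower in alpha Pdx1, the background for each list in this paragraph. Of 17 granule and prohormone genes 5 were higher and 3 lower, with a median of 0.12. Without the 5 libraries 4 were higher and 2 lower, with the Rn18s-rs5 covariate 0 and 1, and without alpha DT 1, alpha Pdx1 2 or alpha Pdx1 3 the number higher was 3. Scg3 and Chgb, granins of the dense core, differed by 1.47 ± 0.27 (adjusted p = 0.000483) and 1.36 ± 0.30 (adjusted p = 0.0024), whereas Vgf and the convertase inhibitor gene Pcsk1n (-1.58 ± 0.31, adjusted p = 0.00104) were lower. Of 32 channel and receptor genes 6 were higher and 1 lower, without the 5 libraries 6 and 4, and with the Rn18s-rs5 covariate 3 and 1. Ryr3, an intracellular calcium release channel, was at 12.04, 11.81, 11.26, 11.60 and 10.83 in alpha Pdx1 and at 7.64, 7.75, 6.34 and 8.19 in alpha DT (4.03 ± 0.80, adjusted p = 0.00136), while beta had a median of 7.90. Scn9a, the main islet sodium channel, differed by 1.41 ± 0.26 (adjusted p = 0.000591). Among 22 exocytosis genes 3 were higher and 3 lower, without the 5 libraries 4 and 2, and with the Rn18s-rs5 covariate 0 and 0. Vamp2, a vesicle fusion protein, was lower in all alpha Pdx1 libraries, at 10.56 to 11.45 against 12.78 to 13.03 (-1.82 ± 0.30, adjusted p = 0.000229), and rose by 1.38 ± 0.27 after ablation (adjusted p = 0.00582).

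A further 7 lists are given beside the shares over all genes tested, 9.82% higher and 7.19% lower. Of 21 immediate early genes 2 were higher and 2 lower (2 and 1 without the 5 libraries), with Ier5 the strongest (2.63 ± 0.41, adjusted p = 0.000118), followed by Fos (1.30 ± 0.35, adjusted p = 0.0123), while Jund and Junb were the lower pair. Of 31 genes of insulin and FoxO signalling 2 were higher and 1 lower, the last being Foxo4 (-2.66 ± 0.58, adjusted p = 0.00221). Of 24 respiratory chain and ATP synthase genes 4 were higher and 4 lower (3 and 2 without the 5 libraries), and of 19 phagocytosis and lysosome genes 2 and 2 (2 and 4). Interferon genes gave 1 and 1 of 19, with Usp18 higher (1.78 ± 0.34, adjusted p = 0.000789). Of 14 antigen presentation genes 0 were higher and 2 lower, B2m (-1.77 ± 0.57, adjusted p = 0.0324) and Tapbp (-0.63 ± 0.21, adjusted p = 0.0363). Of 12 proliferation genes 0 were higher and 3 lower, and the median of that list was 0.27. With the Rn18s-rs5 covariate 1 immediate early gene was higher and no member of the other 6 lists passed.

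**Figure D4:**
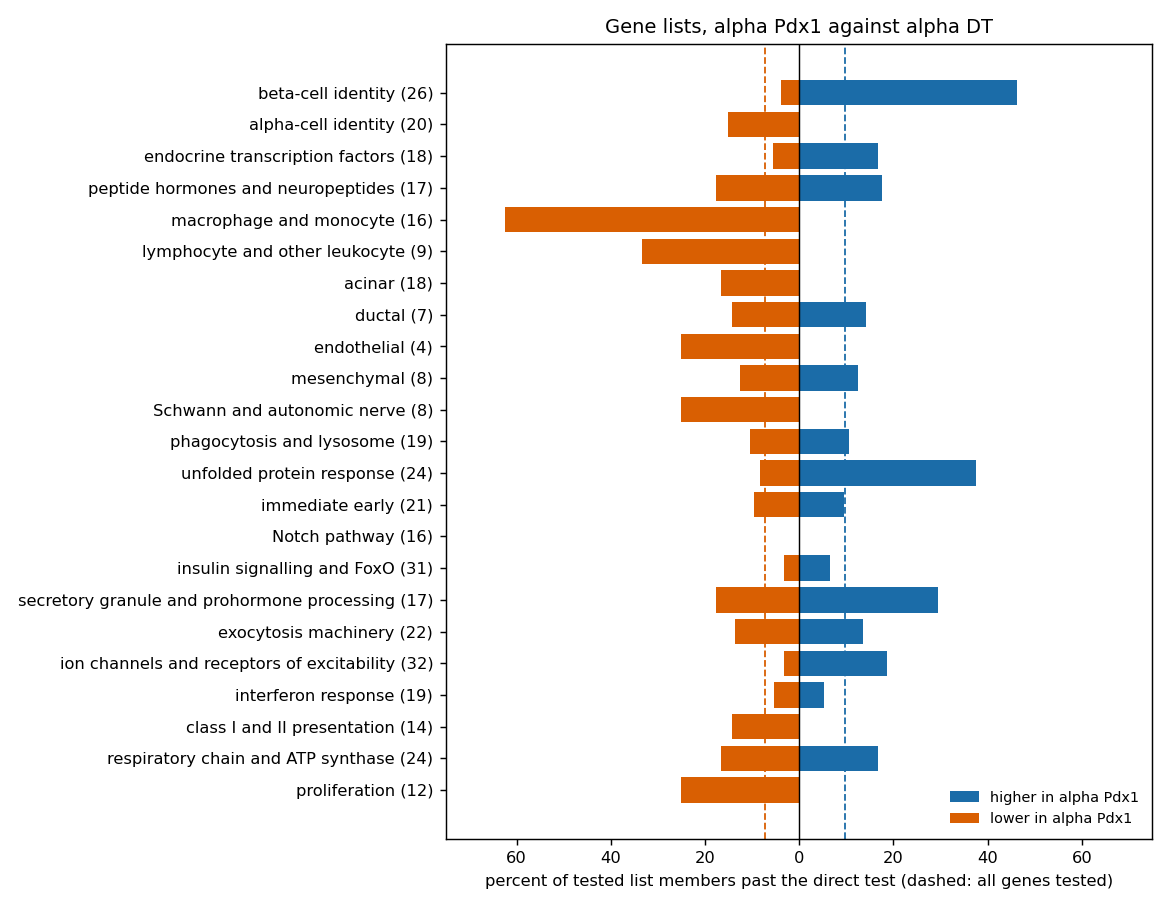
Share of the tested members of each gene list (number in brackets) that were higher (blue, to the right) or lower (orange, to the left) in alpha Pdx1 than in alpha DT, in percent of members; dashed lines mark all genes tested (9.82% and 7.19%). The beta-cell list has 12 of 26 members higher, the unfolded protein response list 9 of 24 higher and the macrophage list 10 of 16 lower.

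Tested against a log2 difference of 1 instead of against 0, 60 genes remained past the threshold in the direct comparison (0.361%), 35 higher and 25 lower in alpha Pdx1. In alpha Pdx1 against alpha this test called 1 gene (0.00601%), and in alpha DT against alpha limma called 0 (0%), with 246 genes at an unadjusted p under 0.05.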

How the data were processed

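RNA was measured in 30 libraries of sorted mouse islet cells in 5 groups, with 8 alpha, 4 alpha DT and 5 alpha Pdx1 libraries compared here. The submitters' processing notes name the aligner GSNAP and the build GRCm38; the aligner's version, the gene annotation and the counting rule are not given in the sources used here. For 17775 genes the authors deposited log2 values after quantile normalization; the log base was taken from the range of the deposited values, 0.758 to 22.565. Read depth is unknown, so no counting interval is given, and shared quantiles turn a large change in abundant genes into changes of rank.

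Genes at 5 or more in at least 4 libraries (16633) were fitted with limma 3.58.1 in R 4.3.3, with 1 mean per group over all 30 libraries, an intensity trend and robust variances. P-values were two-sided and Benjamini-Hochberg adjusted within a contrast, with a threshold of 0.05; ± in the text is a standard error where it follows a difference. Library measures were compared between alpha Pdx1 (n = 5) and alpha DT (n = 4) by a two-sided exact permutation test. Besides Rn18s-rs5 these were the number of genes at a library's lowest value and the number of distinct low values. Genes at the lowest value numbered 108 to 424 in alpha Pdx1 and 383 to 1064 in alpha DT (exact permutation p = 0.0952). Distinct low values numbered 40 to 88 and 49 to 71 (exact permutation p = 0.5397). The 1064 genes were in alpha DT 3, at a lowest value of 1.995. On simulated data for alpha Pdx1 against alpha DT (16146 genes), 37 of 100 genes changed by 1 (log2) and 91 of 100 changed by 2 were recovered. The changed genes were drawn only from those above a set mean level, and only the alpha Pdx1 libraries were shifted. The recovery therefore does not cover genes at low levels. In the same data 0 were called in the wrong direction, with 4 false calls. The simulation drew each gene's noise independently and held no effect shared across genes in a library. Its false calls therefore do not measure the error of the real comparison. Python 3.11.15 with pandas 2.3.3 prepared tables.

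A few listed genes are not reported here. The libraries, lists and alternatives were chosen with earlier results of these data known, including the 5 libraries left out in one alternative. Named genes were a fixed set of islet and marker genes, the 10 highest and 10 lowest direct differences among called genes above the median level with no overlap between the groups, the 5 leading genes of each class in each direction, genes past both comparisons with alpha (up to 6 per direction) and up to 2 per list and direction. Further genes, chosen after their values were seen, bring the 112 of the rule to 140; these are Svil, Ehhadh, Prnp, Vegfa, Syt14, G6pc2, Trpm5, Ffar1, Ero1lb, Slc2a2, Glp1r, Ttr, Tac1, Hspa5, Dnajb9, Calr, Gap43, C1qb, C1qc, Itgam, Fcer1g, Cx3cr1, Sncg, Colq, Il22ra2, Mcoln2, Klhl14 and Agtr1a. Alternatives changed the filter, the offset, the libraries in the fit, the variance model, library weights, covariates and the null difference. Gene coordinates are from GENCODE and upstream windows from RefSeq, both on GRCm38.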

Additional observations from a re-analysis of the deposited data

Results flagged for a closer look

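In each group of 4 to 10 libraries the highest or lowest value of each named gene was compared with its nearest neighbour, and a gap that took up most of the group's range was listed. Chance alone lists about 1 group in 20, and 53 values were listed among the 420 groups of a gene examined. Many of them belong to 1 library, alpha 8, and its genes are in large part those that were high in alpha Pdx1.

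In alpha 8, values far above the other alpha libraries were Pdx1 at 11.23 (nearest 5.61), Iapp 17.92, Ins2 19.27, Pyy 22.56, 1700011H14Rik 8.95, B830017H08Rik 9.40, Slc5a1 11.00, Tagln3 11.26, Inpp4b 12.31, Lrtm1 9.95, Tmem65 12.04, Papss2 13.15, Mlxipl 13.96, Ctsl 13.97, Ier5 10.96, Syt13 14.05, Scn9a 12.55, Ryr3 12.22, G6pc2 13.70, Gap43 9.11, Klhl14 8.74 and Svil 11.24. In the same library Gcg at 20.54, Ttr, the transthyretin gene, at 16.98 and Upk3a at 5.80 lay far below the others. The direct comparison of alpha Pdx1 with alpha DT does not use the mean of the alpha libraries.

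In alpha 4 the nerve-type genes Vip, Prph, Slc18a3, Cplx1 and Sncg stood above the other alpha libraries, at 7.39, 5.93, 3.42, 4.96 and 4.96. In alpha 7, Ctrb1 was high at 16.17 and Pcsk1n and Nsf were low at 12.96 and 10.79.

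Among the alpha DT libraries, alpha DT 4 was high in Slc7a2 (17.92) and Colq (7.22) and low in Tac1 (4.05). Alpha DT 3 was low in Tagln3 (3.71), Rgs16 (5.21) and Nsf (10.73) and high in Syt13 (13.22), and its Mafa value of 2.00 equals the lowest level that this library holds. Alpha DT 1 was high in Slc38a5 (11.37).

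Among the alpha Pdx1 libraries, alpha Pdx1 1 was high in the macrophage genes Marco (6.0) and Tyrobp (4.86), and in Cplx1 (3.06), Colq (2.04), Tapbp (10.77) and Cox4i1 (12.19), and low in Prnp (12.52). Alpha Pdx1 5, the library with the least Pdx1, was low in Gabbr2 (10.05) and Papss2 (12.60) and high in Slc7a2 (15.86). Alpha Pdx1 3 was high in Pcdhgb5 (9.17).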

How the results depend on the processing

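The count of genes differing between alpha Pdx1 and alpha DT, 2830, became 1385 in a fit to the 2 groups alone, 333 with Rn18s-rs5 as a covariate, 1649 with the macrophage mean as a covariate and 60 against a log2 difference of 1. For alpha Pdx1 against alpha, 721 became 3110 with library weights (1527 higher and 1583 lower), 114 with the Rn18s-rs5 covariate (86 higher and 28 lower), 1099 without the 5 doubted libraries and 1 against a log2 difference of 1. For alpha DT against alpha, 543 became 251 in a fit to 3 groups, 208 with weights, 295 with Rn18s-rs5, 173 with the macrophage mean and 0 against a log2 difference of 1. Genes past both comparisons with alpha, 18, became 9, 46, 3 and 69 in the fit to 3 groups, with weights, with Rn18s-rs5 and without the 5 libraries. The 461 genes of the Pdx1 and direct tests became 1144 with weights and 57 with Rn18s-rs5. The 459 genes of the ablation and direct tests became 212, 150, 88 and 147 in the fit to 3 groups, with weights, with Rn18s-rs5 and with the macrophage mean. Fewer libraries enter the fits to 2 or 3 groups; otherwise the cause was not tested. Filters, the offset, the variance model and the acinar covariate kept all these counts within 1.5 times.

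Leaving out each library in turn gave 1912 to 3151 genes for the direct comparison, 301 to 985 for Pdx1, 306 to 1078 for ablation, 6 to 43 past both, 204 to 616 for Pdx1 with the direct test and 259 to 865 for ablation with the direct test. The Pdx1 count fell to 328, 452 and 301 without alpha Pdx1 2, 3 and 4 and to 447 without alpha 3. The ablation count was 1078 without alpha DT 4, 341 without alpha DT 2, 306 without alpha 2 and 347 without alpha 4. The count past both was 43 without alpha DT 4, 31 without alpha Pdx1 1, 29 without alpha 8, 10 without alpha 4, 8 without alpha 3, alpha 6 or alpha Pdx1 3, 7 without alpha Pdx1 2 and 6 without alpha Pdx1 4. The Pdx1 with direct count was 222, 293 and 204 without alpha Pdx1 2, 3 and 4, and the ablation with direct count 865 and 295 without alpha DT 4 and 2 and 259, 304 and 294 without alpha 2, 4 and 8.

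Of the 116 named genes past the direct test, 92 kept the call without each library and 40 did so in every fit. With the macrophage covariate, which holds these genes in its own mean, C1qb and C1qc turned to 3.83 and 3.89 and Cx3cr1 to 0.06, and with it Csf1r was at -1.28 (adjusted p = 0.141) and Timd4 at -2.14 (adjusted p = 0.093). No other named gene changed direction in a fit where it, or its first value, passed the test. No paired analysis was possible because the labels give the libraries no replicate numbers that groups could share. Depth is unknown, so low values near a library's lowest level cannot be weighted by their precision.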
